A study of Mus musculus with 4 samples.

Results

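The Bex genes encode small, mostly unstructured proteins that are best known from the nervous system, and most of them lie in a cluster on the X chromosome together with the related TCEAL genes. The table deposited by the authors lists 46517 genes, and 4 of them, Bex1, Bex2, Bex4 and Bex6, are described here. They were taken by gene symbol, and the family was chosen on the Bex4 difference between the genotypes, which is among the largest in the table, so the genotype contrast of these 4 genes is given as a description with no test of its own. The remaining mouse family member, Bex3, is listed under its older symbol Ngfrap1 and is used for comparison. The 4 libraries, 2 per genotype, were made from LSK cells of C57BL/6 mice aged 8 to 10 weeks, the sorted fraction without lineage markers and with Sca-1 and c-Kit that holds the blood stem cells and early progenitors. The control genotype is Setd2f/f, described by the submitters as wild type for Setd2, and the knockout genotype is Setd2D/D. Setd2 writes H3K36 trimethylation along transcribed genes. No source used here gives the Cre driver, the deleted exons or the mice behind each library. Nothing says that replicates came from separate mice, so p-values reflect the spread among these libraries alone and that spread may be technical.

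As background, Bex1 binds the intracellular part of the p75 neurotrophin receptor and links neurotrophin signalling to the cell cycle. Bex2 was found in a DNA-binding complex with LMO2, a core protein of blood stem cell transcription complexes. Bex3, also called NADE, mediates cell death signals of the p75 receptor. Bex4 has been tied to microtubules and to the tubulin deacetylase SIRT2. No role is given here for Bex6.

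The starts of the Bex genes are shown first because Bex4 and Bex1, whose levels differ in how they compare between the genotypes, begin with nearly the same sequence. The windows come from RefSeq on GRCm38.p6 and all 5 genes matched. Each window runs from 250 bases before to 50 bases after the annotated start, and the 250 bases before the start are printed, 5′ to 3′ on the strand of the gene. Capitals mark bases that differ between Bex4 and Bex1, or between Bex2 and Bex3, within their local alignment. Bex4 lies at chrX:136138746-136138995 on the plus strand, Bex1 at chrX:136215514-136215763 on the minus strand, Bex2 at chrX:136068237-136068486 on the minus strand, Bex3 at chrX:136270003-136270252 on the plus strand and Bex6 at chr16:32179550-32179799 on the plus strand.
Bex4: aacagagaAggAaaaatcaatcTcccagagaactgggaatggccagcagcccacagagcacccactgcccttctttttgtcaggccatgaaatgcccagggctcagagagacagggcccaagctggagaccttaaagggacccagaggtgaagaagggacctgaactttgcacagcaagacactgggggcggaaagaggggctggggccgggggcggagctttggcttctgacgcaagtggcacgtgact
Bex1: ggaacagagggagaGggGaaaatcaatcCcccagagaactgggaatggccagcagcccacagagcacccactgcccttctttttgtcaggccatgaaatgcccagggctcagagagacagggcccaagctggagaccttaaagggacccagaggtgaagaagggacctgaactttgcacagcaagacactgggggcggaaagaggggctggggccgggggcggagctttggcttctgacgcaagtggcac
Bex2: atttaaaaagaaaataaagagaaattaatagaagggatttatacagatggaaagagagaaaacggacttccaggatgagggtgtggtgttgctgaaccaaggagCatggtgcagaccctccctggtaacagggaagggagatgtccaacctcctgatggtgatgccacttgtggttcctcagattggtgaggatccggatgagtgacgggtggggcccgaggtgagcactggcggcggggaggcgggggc
Bex3: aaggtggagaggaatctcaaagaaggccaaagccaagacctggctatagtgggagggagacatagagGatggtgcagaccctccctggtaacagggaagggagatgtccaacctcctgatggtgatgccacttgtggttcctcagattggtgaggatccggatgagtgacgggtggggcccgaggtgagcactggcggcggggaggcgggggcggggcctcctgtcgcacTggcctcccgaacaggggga
Bex6: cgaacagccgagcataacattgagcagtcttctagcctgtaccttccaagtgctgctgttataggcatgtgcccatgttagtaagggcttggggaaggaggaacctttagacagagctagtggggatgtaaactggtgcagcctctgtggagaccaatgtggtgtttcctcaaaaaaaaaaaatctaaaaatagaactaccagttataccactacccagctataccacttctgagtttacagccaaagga

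The Bex4 and Bex1 windows aligned over 290 bases with 287 identities, 3 mismatches and 0 gaps, offset by 6 bases against the annotated starts. They hold one uninterrupted identical run of 271 bases. The starts of these genes are 76.5 kb apart and on opposite strands. Bex2 and Bex3, whose starts are 202.0 kb apart and also on opposite strands, form the second such pair, with 197 identities and 2 mismatches over 199 bases and an offset of 37 bases. Between the pairs, and between Bex6 and any of the others, the longest identical run was 8 or 9 bases. The palindromic motif CACGTG, the core recognised by many basic helix-loop-helix factors, occurs in 7.15% of 32851 windows of this length. Its first base was at position -9 in Bex4, at position -3 in Bex1 and at position 27 in Bex3, counting the start as 0, so that in Bex1 the match runs past the printed end. The GC box GGGCGG, searched on both strands, is in 35.7% of the windows and had 2 matches in Bex4, 2 in Bex1, 1 in Bex2, 1 in Bex3 and 0 in Bex6. No printed GC box overlaps a CACGTG. The number of CpG dinucleotides was 9 in the Bex4 window, 8 in Bex1, 12 in Bex2, 13 in Bex3 and 3 in Bex6, against a median of 7 (quartiles 3 and 20) over all windows. These matches describe the letters of the windows, and no binding or methylation was measured.

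Sequence sharing goes on into the transcripts and bears on how reads could be assigned. Of the 788 different runs of 50 bases in the GENCODE M21 transcript of Bex4, 203 (25.8%) also occur in Bex1 transcripts. In the same way 155 (19.7%) occur in the processed pseudogene Gm12245 and 149 (18.9%) in the processed pseudogene Gm4322; these sets can overlap, and in all 49.7% occur in a transcript of at least one other gene. Gm12245 was listed at 0 TPM in every library and Gm4322 at 0.450 TPM in Setd2D/D replicate 1 and at 0 in the others. Bex2 shares 125 (14.6%) of its 854 runs with Bex3 and 65 (7.61%) with Bex1. Bex6 shares 0 of its 968 runs with any other gene. The division of reads between Bex4 and Bex1, and between Bex2 and Bex3, is therefore uncertain, and sums over each pair are given below as well.

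Levels are in TPM, a share of all transcripts after division by transcript length, so levels of different genes can be compared. They are given as the mean ± SD of the 2 libraries of a genotype. TPM keeps no read depth, so the counting error behind each value is unknown. Setd2 itself was at 78.9 and 68.0 TPM in the control pair, against 43.4 and 49.5 TPM in the knockout pair, a gene-wide level that would still count transcripts lacking the deleted part. The c-Kit gene Kit was between 224 and 301 TPM and the Sca-1 gene Ly6a at 127.5 and 123.8 TPM in the controls and 46.5 and 80.6 TPM in the knockout, while the T cell gene Cd3e did not exceed 0.570 TPM. Setd2D/D replicate 1 stood apart, with correlations across genes of 0.910 to 0.913 with the other 3 libraries, against 0.959 between the Setd2f/f libraries. Every library carried the Y-linked Ddx3y at 34.95 TPM or more, and Xist was at 0.200 TPM or less, values that bear on the X-linked Bex1, Bex2, Bex3 and Bex4.

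Bex4 (ENSMUSG00000047844, GRCm38 chromosome X, 136138996 to 136140443, plus strand, 3 exons) was low in the control cells and abundant in the knockout. It was measured at 11.6 and 10.5 TPM in the controls, against 83.2 and 66.5 TPM in the knockout pair. The groups were far apart, and each knockout library was between 5.73 and 7.94 times each control library. The means were 11.1 ± 0.792 and 74.9 ± 11.9 TPM, a ratio of 6.78, and the difference on the log2(TPM + 1) scale was 2.65 with an SE of 0.18. Among the tested genes Bex4 stood at percentiles of level of 37.5 and 36.7 in Setd2f/f and of 86.0 and 82.5 in Setd2D/D. Counted from the largest increase in log2 difference, it was number 36 of the 14755 tested genes, number 34 of the 11249 whose mean reached 5 TPM, and number 2 of 474 on the X chromosome. The replicates of Bex4 were 0.13 apart on the log2 scale in Setd2f/f and 0.32 in Setd2D/D, beside medians of 0.16 and 0.23 over 4984 genes of like level, of which 43.0% and 64.0% had closer replicates.

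Bex1 (ENSMUSG00000050071, chromosome X, 136213972 to 136215513, minus strand, up to 3 exons), the gene with the matching start, did not separate the genotypes. It was at 17.3 and 16.8 TPM in the control pair, against 14.7 and 29.7 TPM in the knockout pair. The control values lie between those of the 2 knockout libraries. The means were 17.1 ± 0.297 and 22.2 ± 10.6 TPM, a ratio of 1.30, with a log2 difference of 0.28 and an SE of 0.36. The direction rests on 1 library, as leaving out Setd2D/D replicate 2 gave a log2 difference of -0.20, and leaving out replicate 1 of that genotype gave 0.77. The knockout replicates differed 2.02-fold, more than 91.6% of 5018 genes of like level in that genotype.

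Bex4 was lower than Bex1 in both control libraries and higher in both knockout libraries. The ratio of Bex4 to Bex1 was 0.673 and 0.623 in Setd2f/f and 5.67 and 2.24 in Setd2D/D. The knockout library with more Bex4 was the one with less Bex1, and the sum of the pair was almost the same in both. That sum came to 28.9 and 27.3 TPM in the controls, against 97.9 and 96.2 TPM in the knockout pair, a ratio of means of 3.45 and a log2 difference of 1.75. Because TPM divides by transcript length, and the Bex4 transcript has 837 bases and those of Bex1 between 481 and 866, this sum still moves somewhat with the division of shared reads. What share of reads was common, and how they were divided, was not tested.

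**Figure D1:**
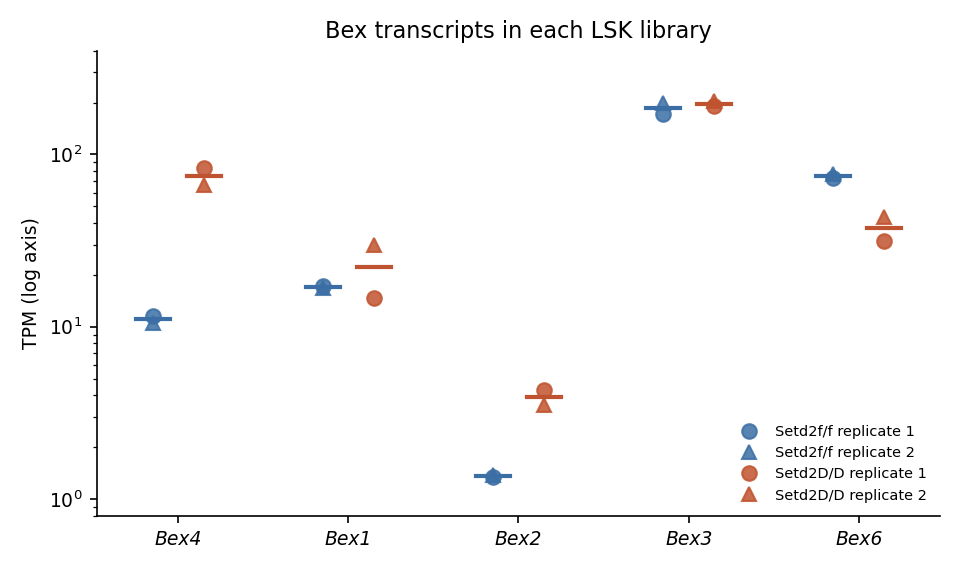
TPM of the 5 Bex genes on a log axis in each library, with blue for Setd2f/f, red for Setd2D/D, circles for replicate 1, triangles for replicate 2 and a bar for the mean of each genotype. The means are 11.1 and 74.9 TPM for Bex4 and 74.7 and 37.4 TPM for Bex6, and the Bex1 and Bex3 libraries of the genotypes overlap.

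Bex2 (ENSMUSG00000042750, chromosome X, 136066564 to 136068236, minus strand, 3 exons) was the least abundant of the family. It was at 1.34 and 1.37 TPM in the control pair, against 4.32 and 3.51 TPM in the knockout pair. Both knockout libraries were above both controls, by 2.56-fold to 3.22-fold. The means were 1.36 ± 0.0212 and 3.92 ± 0.573 TPM, a ratio of 2.89, and the log2 difference was 1.06 with an SE of 0.34, a scale that understates the difference of a gene so close to the pseudocount of 1. The authors' deposited table gives Bex2 a mean of 0.60 on the log2 CPM scale, against 4.46 for Bex4. The Bex2 level equals 0.776% and 0.687% of that of Bex3 in the Setd2f/f libraries and 2.27% and 1.72% in the Setd2D/D libraries, so a small error in dividing the shared reads would be large beside it. The sum of Bex2 and Bex3 was 174.0 and 200.8 TPM in Setd2f/f and 194.4 and 207.3 TPM in Setd2D/D, and these ranges overlap.

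Bex6 (ENSMUSG00000075269, chromosome 16, 32179823 to 32186972, plus strand, up to 3 exons), the member outside the X cluster, was lower in the knockout. It was at 72.8 and 76.6 TPM in the control pair, against 31.3 and 43.5 TPM in the knockout pair. The groups did not overlap, and each knockout library was between 0.408 and 0.597 of each control. The means were 74.7 ± 2.72 and 37.4 ± 8.60 TPM, a ratio of 0.50, with a log2 difference of -0.998 and an SE of 0.19. Its transcripts share no exact run of 50 bases with other genes, unlike those of the X-linked members. Shorter or inexact matches were not searched. Its difference was number 647 from the largest decrease among 14755 tested genes.

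Bex3 (ENSMUSG00000046432, chromosome X, 136270253 to 136271978, plus strand), the most abundant Bex transcript, was at 173 and 199 TPM in the control pair, against 190 and 204 TPM in the knockout pair. The groups overlapped, at means of 186 ± 18.9 and 197 ± 9.68 TPM. The limma log2 difference was 0.08 with an SE of 0.12 (adjusted p = 0.824 over all genes). Bex3 was not among the genes chosen by the rule, so its p is given.

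The order of the levels differed between the genotypes. In both Setd2f/f libraries it was Bex3, Bex6, Bex1, Bex4 and Bex2 from high to low. In both Setd2D/D libraries Bex4 came after Bex3, followed by Bex6, Bex1 and Bex2. All neighbours in these orders were separated in both libraries of a genotype, most narrowly Bex6 and Bex1 in Setd2D/D, where the lowest Bex6 value was 31.3 TPM and the highest Bex1 value 29.7 TPM. Of the summed Bex transcripts Bex4 made up 4.21% and 3.44% in Setd2f/f and 25.7% and 19.2% in Setd2D/D, and Bex6 went the other way, from 26.4% and 25.1% to 9.67% and 12.5%. Summed over all 5 genes, the level was 276 and 305 TPM in Setd2f/f and 324 and 347 TPM in Setd2D/D, a ratio of 1.16. The family total thus differed less than its make-up, but Bex3 made up between 58.7% and 65.4% of it. Without Bex3 the 4 members summed to 103 and 105 TPM in Setd2f/f and 134 and 143 TPM in Setd2D/D, a ratio of 1.33.

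**Figure D2:**
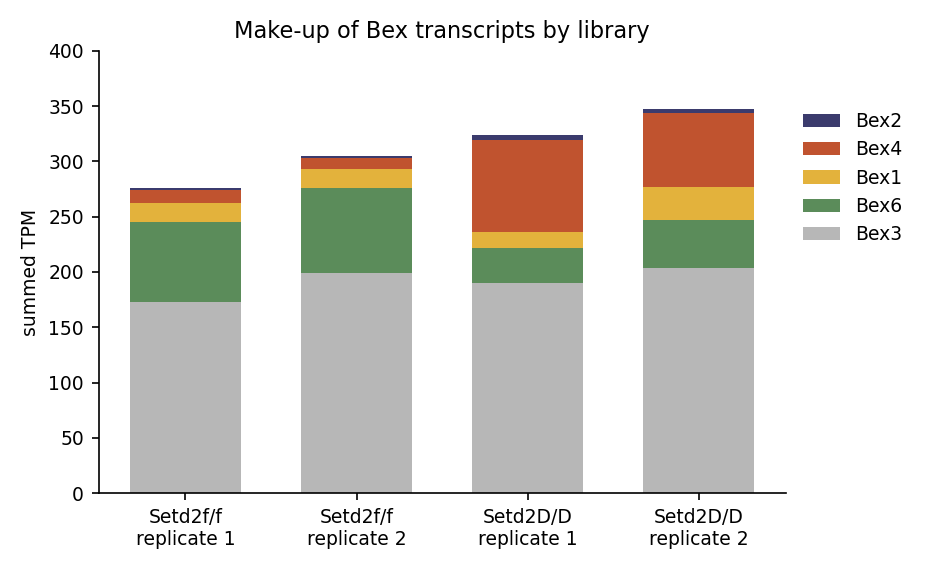
Summed TPM of the 5 Bex genes in each library, with the height of each coloured block giving the TPM of 1 gene. The grey Bex3 block is between 173 and 204 TPM in every library, while the red Bex4 block is taller and the green Bex6 block shorter in the Setd2D/D libraries.

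All 4 members passed the filter used for the fit, 1 TPM or more in 2 or more libraries, and all were at 1 TPM or more in every library. The limma fit placed 0.0678% of the 14755 tested genes past an adjusted p of 0.05 and 1647 of them (11.2%) under an unadjusted p of 0.05, the shares against which the counts of other genes below are read. Both knockout libraries lay above both controls for Bex4 and Bex2, as for 16.8% of tested genes, and below both for Bex6, as for 27.6% of tested genes. The authors' deposited table gives log2 fold changes of 2.81 for Bex4, 1.57 for Bex2, 0.40 for Bex1 and -0.95 for Bex6. At its FDR threshold of 0.05 it has Bex4 higher, beside 1.51% of its 23955 genes, and Bex6 lower, beside 1.64%. Because the family was chosen on this contrast, nothing is read from these counts.

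**Figure D3:**
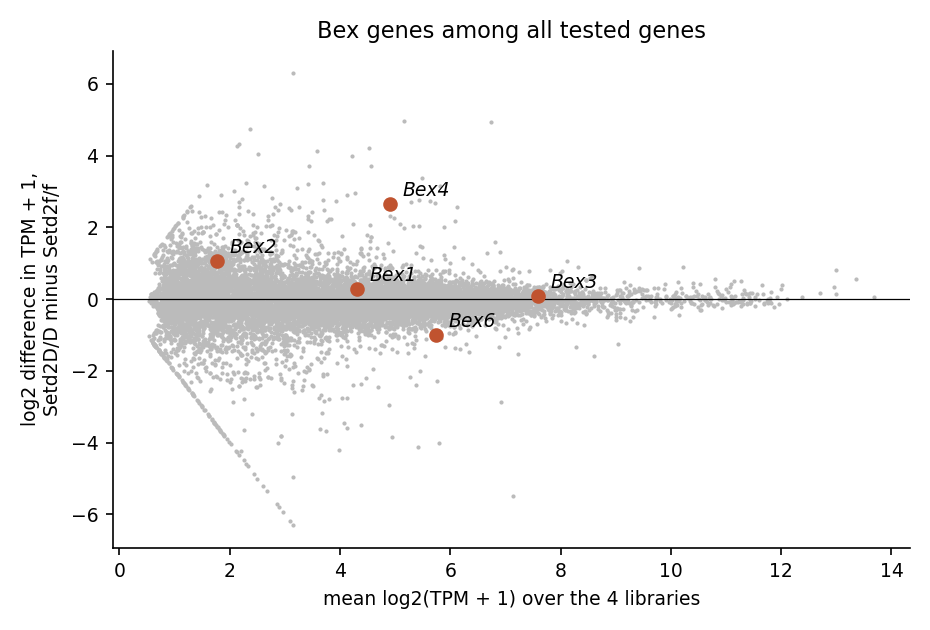
Mean log2(TPM + 1) over the 4 libraries (horizontal) against the log2 difference, Setd2D/D minus Setd2f/f (vertical), with each grey dot a tested gene and the Bex genes in red. Bex4 stands at 2.65, well above most genes of its level, Bex6 at -0.998, and Bex1 and Bex3 lie near 0.

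Neighbours of the X-linked members were examined over 1 Mb to either side of their starts. The window holds 98 other genes of the table, of which 63 were at 0 TPM in every library and 21 were tested. By limma 0 of the 21 passed, 2 had an unadjusted p under 0.05 beside 11.2% of all tested genes, and their median log2 difference was -0.06, the same as the median of all tested genes at this precision. Tceal8, whose start is 33.3 kb from that of Bex4 on the opposite strand, was the nearest tested gene on one side. It was at 29.3 and 29.1 TPM in the control pair, against 49.4 and 48.8 TPM in the knockout pair, a clear gap between tight pairs with a ratio of 1.68 (limma log2 difference 0.73, SE 0.13, adjusted p = 0.258). The authors' deposited table gives Tceal8 an FDR of 0.00836. On the other side the nearest tested gene is Bex2, and beyond it Arxes2, at 4.03 and 6.08 TPM in the control pair, against 0 and 1.97 TPM in the knockout pair (limma adjusted p = 0.428). Of the 21 neighbours 2 were above both controls in both knockout libraries, Tceal8 and the distant Morf4l2, beside 16.8% of all tested genes. Both knockout libraries were below both controls for 5, beside 27.6% of all tested genes. Tceal5, which lies between Tceal8 and Bex1, overlapped, at 4.29 and 4.43 TPM in the controls and 3.18 and 5.61 TPM in the knockout.

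**Figure D4:**
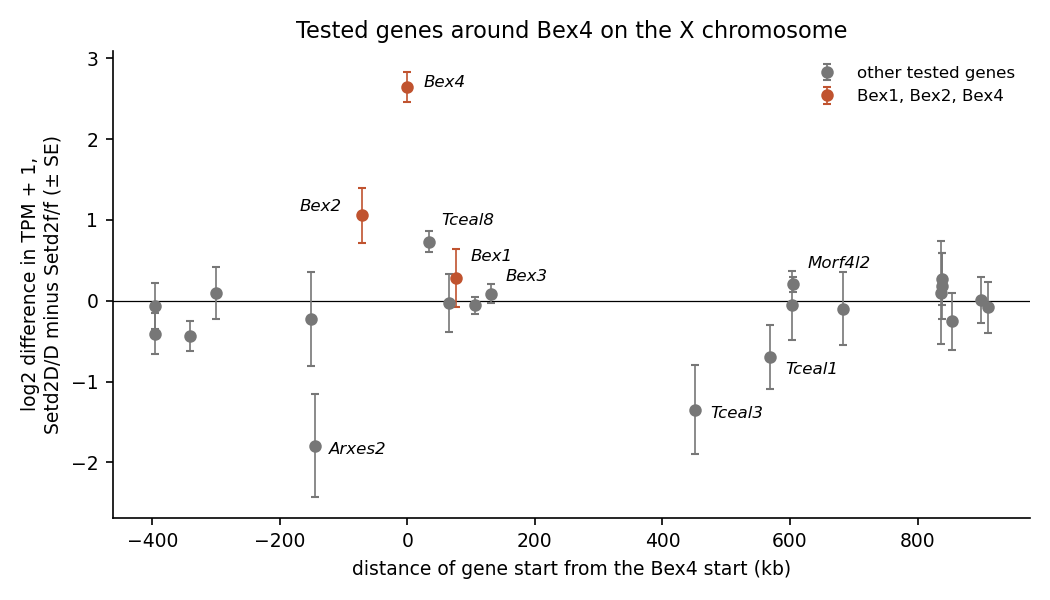
Log2 difference of each tested gene, Setd2D/D minus Setd2f/f, with its SE, against the distance of its start from that of Bex4 in kb. Bex4 at 2.65 stands above all other genes of the window, and Tceal9 at 106.1 kb and Bex3 at 131.3 kb lie near 0.

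The TCEAL genes are the closest relatives of the Bex genes and interleave with them. Of 7 measured members, Tceal6 and Tceal7 were at 0 TPM in all libraries and 5 were tested. By limma 0 passed, 1 had an unadjusted p under 0.05, and the median log2 difference was -0.06. That median was -0.36 without Setd2D/D replicate 2 and 0.34 with the filter raised to 5 TPM. The authors' deposited table has Tceal8 higher at an FDR of 0.05 and 0 members lower. Tceal9, listed as Wbp5, was the most abundant, at 87.0 and 90.0 TPM in the control pair, against 84.5 and 85.5 TPM in the knockout pair. Tceal1 was at 4.47 and 2.73 against 1.42 and 2.22 TPM, and Tceal3 at 3.54 and 1.59 against 0 and 0.820 TPM. For both genes the knockout values lay below the controls, at levels near the filter of 1 TPM. Of the 10 tested genes of the GASP and ARMCX families, counting the related Armc10, 0 passed limma, 0 had an unadjusted p under 0.05 and 0 passed in the authors' deposited table. Their log2 differences ran from -0.44 for Bhlhb9 to 0.10 for Gprasp2, with Armcx1, Armcx2, Armcx3, Armcx4, Armcx5, Armcx6, Armc10 and Gprasp1 between.

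Around Bex6 on chromosome 16 the same window holds 59 other genes, of which 29 were tested and 0 passed limma, with 2 under an unadjusted p of 0.05, again beside 11.2% of all tested genes. Their median log2 difference was -0.10 and the lowest was -0.54. Nrros, the nearest tested gene on one side at -14.2 kb, was at 137 and 139 TPM in the control pair, against 117 and 123 TPM in the knockout pair (limma adjusted p = 0.512), and Fbxo45, 67.3 kb after it, at 20.2 and 19.0 against 16.7 and 14.5 TPM (limma adjusted p = 0.576). No tested neighbour reached the size of the Bex6 difference. The authors' deposited table has Tfrc higher at an FDR of 0.00612 and Tnk2 higher at 0.00147, beside 1.51% of its genes. Tfrc was at 52.3 and 53.5 TPM in the control pair, against 73.2 and 64.6 TPM in the knockout pair. Tnk2 was at 14.4 and 19.4 against 20.45 and 28.2 TPM.

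Transcripts of the pathways in which Bex proteins are known to act were counted for 4 gene lists. Of the neurotrophins and their receptors, Bdnf, Ntf3, Ntrk2 and Ntrk3 were at 0 TPM in all libraries, and Ngfr, which encodes the p75 receptor bound by Bex1 and Bex3, was at 0.280 TPM in Setd2D/D replicate 2 and at 0 in the others. The intracellular p75 partners were present. Maged1, an adaptor of p75 death signalling, was at 40.6 and 34.8 TPM in the control pair, against 43.8 and 42.9 TPM in the knockout pair, and Traf6, a ubiquitin ligase of NF-kB signalling, at 19.0 and 17.5 against 15.9 and 15.4 TPM. Of 17 measured genes of this list 8 were tested, 0 passed limma, 1 had an unadjusted p under 0.05 and 0 passed in the authors' deposited table. That 1 gene was Rtn4r, the Nogo receptor, at 3.59 and 3.63 TPM in the control pair, against 0.960 and 1.58 TPM in the knockout pair (limma adjusted p = 0.428), and the other named member, the sorting receptor gene Sort1, was at 30.1 and 26.1 against 21.5 and 25.5 TPM. The 12 NF-kB genes had a median log2 difference of -0.20 beside -0.06 over all tested genes, and of -0.09 when Setd2f/f replicate 1 was left out. Among them 0 passed limma, 0 had an unadjusted p under 0.05 and 0 passed in the authors' deposited table. Nfkb1, a DNA-binding subunit, was at 151 and 140 TPM in the control pair, against 113 and 126 TPM in the knockout pair. Rela was at 62.6 and 55.7 against 48.7 and 46.1 TPM, the inhibitor gene Nfkbie at 25.4 and 19.7 against 12.7 and 18.7, and Tnfaip3, which shuts the pathway down, at 10.9 and 7.15 against 6.80 and 5.57. These genes were named for the smallest limma p of the list. Of the 12, 6 were below both controls in both knockout libraries, beside 27.6% of all tested genes. Only 1 was above both, Chuk, at 45.55 and 47.1 against 52.5 and 47.4 TPM, and Ikbkg and Rel overlapped.

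The LMO2 complex, with which Bex2 has been found, was abundant in these cells. Lmo2 was at 698 and 691 TPM in the control pair, against 582 and 550 TPM in the knockout pair, a gap wider than the spread within either pair but not past limma over all genes (log2 difference -0.30, adjusted p = 0.395). Tcf12, a basic helix-loop-helix partner, was at 89.5 and 82.3 against 62.8 and 68.0 TPM (limma adjusted p = 0.407), and Tcf3 at 131 and 136 against 119 and 111 TPM. Gata1, the red cell and megakaryocyte factor, was at 10.9 and 9.44 against 26.2 and 18.7 TPM (limma adjusted p = 0.329, FDR of 0.0114 in the authors' deposited table). Nhlh1 was at 0 TPM throughout and Nhlh2 was at 0.250 TPM in Setd2D/D replicate 1 and at 0 elsewhere. Of 13 measured genes 11 were tested, 0 passed limma, 3 had an unadjusted p under 0.05 beside 11.2% of all tested genes, and the median log2 difference was -0.06 (leaving out Setd2D/D replicate 1 gave -0.13, leaving out Setd2f/f replicate 2 gave -0.10 and leaving out Setd2D/D replicate 2 gave -0.02). The authors' deposited table has Gata1 higher and 0 lower.

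For the tubulin list, which holds the genes of the acetylation machinery tied to Bex4, all 9 were tested, 0 passed limma and 3 had an unadjusted p under 0.05 beside 11.2% of all tested genes. The median log2 difference was 0.02, but leaving out Setd2D/D replicate 1 gave -0.29 and leaving out replicate 2 of that genotype gave 0.11. Sirt2, the deacetylase gene, was at 53.8 and 43.4 TPM in the control pair, against 31.3 and 33.0 TPM in the knockout pair (limma adjusted p = 0.394). Tuba1a, an alpha-tubulin gene, was at 150 and 119 against 38.9 and 57.4 TPM (limma log2 difference -1.48, SE 0.23, adjusted p = 0.220), and it is the only gene of the list called lower in the authors' deposited table, which calls 0 higher. The main alpha-tubulin gene Tuba1b was at 1476 and 1623 against 1670 and 1739 TPM, and Tuba1c at 148 and 133 against 115 and 114 TPM. Tubulin genes are close paralogs, so the split of reads between them is uncertain.

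**Figure D5:**
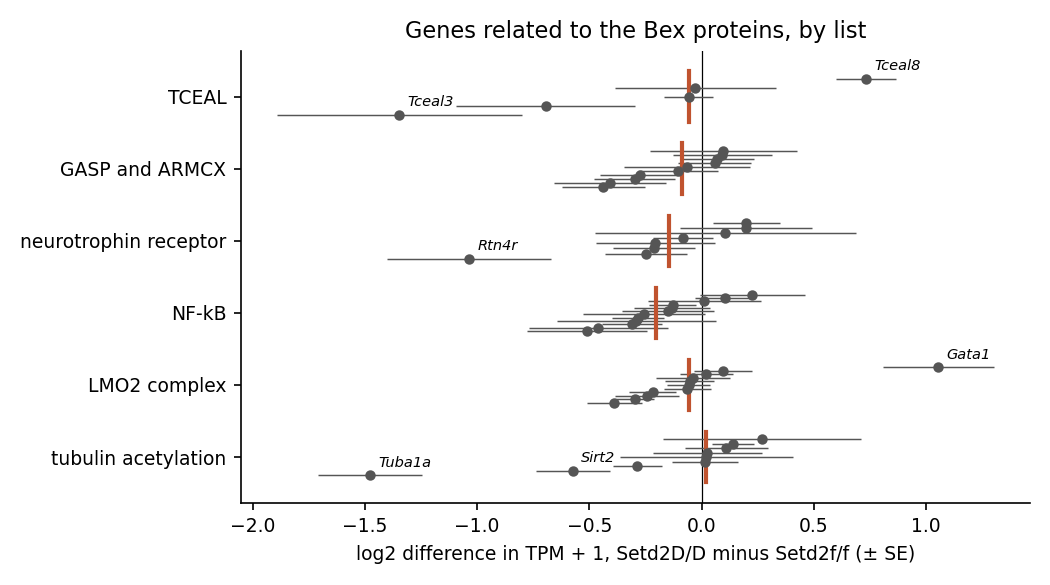
Log2 difference, Setd2D/D minus Setd2f/f, of every tested gene of 6 lists, with its SE as a horizontal bar and the median of each list as a red line. The medians lie between -0.20 and 0.02, and no list shows a gene as far to the right as Bex4 at 2.65.

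Genes with profiles most like a member were named by the smallest root-mean-square distance between centred log2(TPM + 1) values over the 4 libraries, among 9977 genes with a proper symbol and a mean TPM of at least 5. With 4 libraries many genes share a profile, so these are descriptions. Nearest to Bex4 were Gzmb (distance 0.12), Ighv10-3 (0.21), Cldn13 (0.23), the imprinted non-coding RNA Rian (0.26) and the T cell receptor segment Trbv13-2 (0.28). Gzmb, which encodes granzyme B, was at 0.750 and 0.960 TPM in the control pair, against 12.0 and 8.38 TPM in the knockout pair. Nearest to Bex6 were Ccdc64 (0.06), Cox6a2 (0.07), Pard6g (0.07), Hcst (0.07) and Ahdc1 (0.08). Nearest to Bex1 were Cd59a (0.04), Fam129a (0.06), Pdk2 (0.07), Sergef (0.08) and Gsr (0.08), all sharing its high value in Setd2D/D replicate 2. The mean of Bex2 was under 5 TPM, so none was named for it.

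In bulk LSK cells, more cells of a type and more RNA per cell cannot be told apart, and several marker lists differed between the same libraries as Bex4. The 12 erythroid markers summed to 591 and 455 TPM in Setd2f/f and to 1153 and 1031 TPM in Setd2D/D. Each of the 12 was above both controls in both knockout libraries, as were 16.8% of all tested genes. The 9 granulocyte-monocyte markers summed to 1867 and 2287 against 2951 and 3979 TPM, and the 8 mast and basophil markers to 117 and 112 against 133 and 178 TPM. The 7 B lineage markers summed to 510 and 281 against 177 and 247 TPM, the 9 megakaryocyte markers to 254 and 246 against 191 and 193 TPM, the 9 endothelial markers to 403 and 436 against 391 and 357 TPM, and the 10 lineage markers to 236 and 175 against 175 and 195 TPM. The 9 LSK gate genes summed to between 2889 and 2954 TPM in all libraries. Of 91 different genes in all 10 marker lists 64 were tested. By limma 0 passed and 38 had an unadjusted p under 0.05, beside 11.2% of all tested genes. The authors' deposited table has 22 of the 91 higher and 15 lower at an FDR of 0.05, beside 1.51% and 1.64% of its genes. Among them 11 of the erythroid markers and 6 of the granulocyte-monocyte markers were higher, and 6 of the B lineage markers were lower. The part of the marker genes in the Bex levels was not tested. The 11 neural markers summed to between 4.10 and 10.6 TPM, with Snap25, Syt1, Rbfox3, Gap43 and Sox10 at 0 in every library, and the 9 stromal markers to between 10.4 and 26.3 TPM, nearly all of it Pdgfrb.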

How the data were processed

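The authors deposited TPM values for 46517 genes in 4 libraries, and 46005 identifiers matched GENCODE M21 on GRCm38 (mm10). Per the submitters' processing notes, cutadapt, RSEM and edgeR were used, without stated roles or versions. The authors' deposited comparison gives a fold change as a ratio, its log2, a mean log2 CPM, an F score, p-values and an FDR, and it is quoted only where named. Names split at a comma were rejoined (5 and 2 rows). Genes reaching 1 TPM in 2 or more libraries were transformed to log2(TPM + 1) and fitted with limma 3.58.1 in R 4.3.3 (genotype term, variance trend, 2-sided, Benjamini-Hochberg over all 14755 genes), after testing on simulated data. An exact permutation test of 2 against 2 libraries cannot go below p = 0.33. Members, lists and tests were chosen with earlier results of these data known. The named genes were the members, Bex3, TCEAL, GASP and ARMCX genes, up to 4 genes per other list, taken by limma p among those with a mean of 1 TPM or more, Setd2, defining markers, the nearest neighbours and the 5 closest profiles per member at a mean of 5 TPM or more. Arxes2, Morf4l2, Tfrc, Tnk2, Chuk, Ikbkg, Rel, the pseudogenes, the neurotrophin genes at 0, Ngfr, Nhlh1 and Nhlh2 were added after their values were seen. Promoter windows were aligned with Biopython 1.88. The fit was repeated with a pseudocount of 0.1 or 0.5, without the filter, with it set to 5 TPM, after rescaling by trimmed means, median ratios or quantiles, without the trend, with robust moderation, with a replicate block and leaving out each library. Summing Bex1 with Bex4 and Bex2 with Bex3 was added after the sequences were compared.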

Additional observations from a re-analysis of the deposited data

How the results depend on the processing

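The Bex4 log2 difference lay between 2.65 and 2.74 under the 10 settings that keep all libraries and between 2.49 and 2.81 when 1 library was left out, and that of Bex6 between -1.02 and -0.94 and between -1.23 and -0.77. Bex2 was 1.46 with a pseudocount of 0.1 and 1.25 with 0.5, was dropped by the filter at 5 TPM, and ranged from 0.94 to 1.18 with a library left out. Bex1 ranged from -0.20 to 0.77 with a library left out, and was -0.20 without Setd2D/D replicate 2. Over all genes, 10 passed limma, against 3 with a pseudocount of 0.1, 19 without the variance trend, 0 with no filter and 0 when any 1 library was left out. In those fits the lone library of a genotype is assumed to vary like the other pair. The unadjusted p was under 0.05 for 2035 genes with no filter and for 554 to 2928 with a library left out. With the replicate block 0 passed and 1508 had an unadjusted p under 0.05. No source used here says whether same-numbered libraries were paired. The differences between replicates 1 and 2 of the genotypes correlated at 0.04 across genes, which cannot decide this. The related lists and the genes near the members had 0 past the threshold in every setting. The list medians were less stable with 1 library left out, from -0.36 to -0.03 for TCEAL, -0.22 to -0.01 for GASP and ARMCX, -0.28 to -0.08 for neurotrophin, -0.27 to -0.09 for NF-kB, -0.13 to -0.02 for LMO2 and -0.29 to 0.11 for tubulin genes. The TCEAL median was 0.34 with the filter at 5 TPM. With TPM and no counts, the depth behind Bex2 cannot be stated. The causes of these changes were not tested.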
